A study of Mus musculus with 12 samples.

Results

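The 8 genes described here belong to the hair bundle and were followed across clarin mutants: the clarins Clrn1, Clrn2 and Clrn3, the Usher scaffold genes Ush1c and Ush1g, and Adgrv1, Whrn and Pdzd7 of the ankle links. They were chosen by symbol, and all 8 of them are among the 55348 genes of each count table. Clarins are small membrane proteins with several membrane-spanning segments, and loss of clarin-1 causes a form of Usher syndrome, in which deafness is joined by retinal degeneration. In cochlear hair cells the PDZ scaffold harmonin (Ush1c) and its binding partner SANS (Ush1g) anchor the tip links that gate mechano-electrical transduction (MET) channels. The ankle links join the bases of growing stereocilia, are built on the very large adhesion receptor ADGRV1, and are held by the PDZ proteins whirlin (Whrn) and PDZD7. They are known for appearing in the developing cochlear bundle and being lost as it matures.

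RNA came from the organ of Corti, which is the hearing epithelium of the mouse cochlea, at postnatal day 21, after removal of the stria vascularis and of the nerve core. There were 3 libraries for each of 4 genotypes, 12 in all. In Clrn1-/- mice exon 4 of Clrn1 was removed from the embryo onward in all tissues, by crossing a floxed line with a PGK-driven Cre. Clrn2-/- mice carry the clarinet allele, a nonsense change at codon 4 of Clrn2, and Clrn1-/-Clrn2-/- mice carry both defects. Wild-type mice were bred separately rather than as littermates, and in any comparison with them breeding and genotype cannot be told apart. Nothing states whether a library is 1 mouse or a pool, so p-values measure the spread between these libraries. In bulk tissue, fewer cells of a type and less RNA per cell cannot be told apart.

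Counts on genes ranged from 30008679 to 41049302 per library, and levels are given as counts relative to library size (CPM) after TMM normalization. All 89 marker and microvillus genes on the lists had counts in at least 1 library. Hair cell genes were present, with the hair cell motor protein gene Myo6 at 184 ± 4.06 CPM (SD, n = 3) in wild-type, the OHC motor gene Slc26a5 (prestin) at 17.2 ± 0.634 CPM and the IHC gene Otof (otoferlin) at 99.5 ± 11.1 CPM. Summed over the 8 OHC markers tested, libraries lay at 228 to 242 CPM in wild-type, at 201 to 261 in Clrn1-/-, at 240 to 309 in Clrn2-/- and at 273 to 282 in the double mutants. The 6 IHC markers summed to 3050 to 3490 CPM in wild-type, 2340 to 2470 in Clrn1-/-, 2720 to 3280 in Clrn2-/- and 1980 to 2170 in Clrn1-/-Clrn2-/- mice. Most of this sum was Calb2 (calretinin), also a neuronal gene, at 2810 CPM in wild-type and 1690 in the double mutants, whereas 4 of the 6 IHC markers had log2 fold changes above 0 there (median 0.12). The 10 neuronal markers summed to 11300 to 12400 CPM in wild-type, 10400 to 10900 in Clrn1-/-, 9720 to 11200 in Clrn2-/- and 7780 to 7920 in Clrn1-/-Clrn2-/- mice. In the double mutants 3 of these 10 were called lower and 2 higher, where 9.90% of all genes tested were called. The sum over the 11 supporting cell markers went the other way, from 1680 to 1770 CPM in wild-type to 2290 to 2380 in Clrn1-/-Clrn2-/- mice. Of these markers 5 were called higher and 1 lower in the double mutants. The part of these differences between marker sums in the members' values was not tested.

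The sequences below are shown because they carry the defects of the mutants. The first 30 coding bases of each clarin, read 5′ to 3′ from the Gencode M21 transcripts, have codon 4 in capitals. In Clrn2 this codon is the tryptophan codon that the clarinet allele turns into a stop, and the other clarins have other codons there.
Clrn1: atgccaagcCAGcagaagaagatcatcttt
Clrn2: atgcctggaTGGttcaaaaaggtgtggtac
Clrn3: atgccaaccACAcagaaaacgttgatgttc
The second set is the coding part of Clrn1 exon 4, the exon missing from Clrn1-/- mice, with the stop codon in capitals.
Clrn1 exon 4: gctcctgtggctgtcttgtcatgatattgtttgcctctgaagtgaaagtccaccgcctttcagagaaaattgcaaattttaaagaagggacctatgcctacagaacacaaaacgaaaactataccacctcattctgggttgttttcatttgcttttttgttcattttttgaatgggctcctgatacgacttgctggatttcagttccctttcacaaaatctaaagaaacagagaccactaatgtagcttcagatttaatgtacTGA
This stretch lies at chr3:58846189-58846451 of GRCm38 on the minus strand, without the 3 bases of the stop codon. The whole exon spans chr3:58844028-58846451 and has 2424 bases, which is 62.8% of the 3857 exonic bases of Clrn1. All 4 annotated Clrn1 transcripts contain bases of it, so any Clrn1 count left in a mutant without this exon has to come from the other 1433 exonic bases, 37.2% of the total, if the deletion is complete.

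The clarin genes share a layout. Their first coding exon has 253 coding bases in Clrn1 and Clrn2 and 229 in Clrn3, the next shared exon has 180 in each, and the last has 263 in Clrn1 and Clrn2 and 269 in Clrn3, leaving out the stop codons. The transcript Clrn1-202 holds 1 further exon of 54 bases in between.

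**Figure D1:**
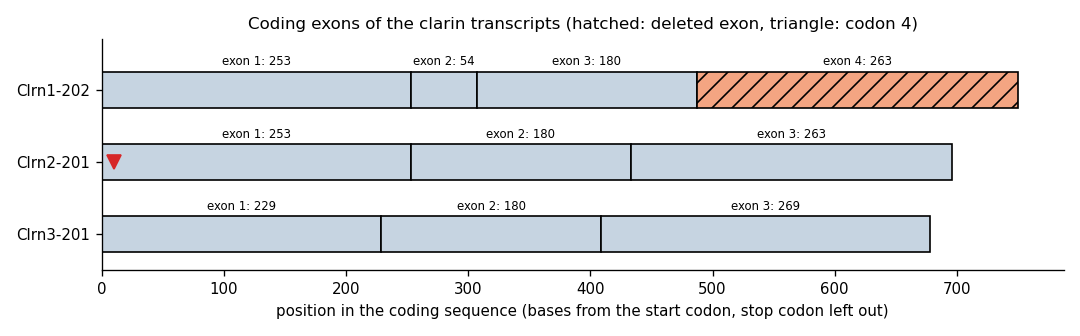
Coding exons of Clrn1-202, Clrn2-201 and Clrn3-201, drawn to scale in bases from the start codon, with coding lengths written above. The hatched exon 4 of Clrn1 (263 coding bases) is the one removed in Clrn1-/- mice, and the triangle marks codon 4 of Clrn2.

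Among the members, 7 of 8 passed the filter on low counts and were tested among 19052 genes in all, by edgeR's quasi-likelihood test with Benjamini-Hochberg adjustment. Calls required both an adjusted p no higher than 0.05 and at least a 1.5-fold difference. In Clrn1-/- relative to wild-type, 2 of the 7 members were called, both lower, where 7.22% of all genes tested were called. In Clrn2-/- relative to wild-type, again 2 were called lower, against 2.66% of all genes. In Clrn1-/-Clrn2-/- relative to wild-type, 3 were called lower and 1 higher, against 9.90% of all genes. The targeted clarin is among the called genes in each, so that beyond the mutated genes themselves 1 member was called in each single mutant (Clrn2 in Clrn1-/-, Whrn in Clrn2-/-) and 2 in the double mutant (Ush1c and Pdzd7). The median log2 fold change of the 7 members was -0.33, -0.20 and -0.32 in the 3 comparisons, while that of all genes tested was within 0.0031 of 0. These medians include the mutated genes. Over the members not mutated in the respective mice the median was -0.10 without Clrn1 (6 members), -0.02 without Clrn2 (6 members) and 0.11 without both clarins in the double mutants (5 members). These comparisons share the wild-type libraries and are set side by side only.

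**Figure D2:**
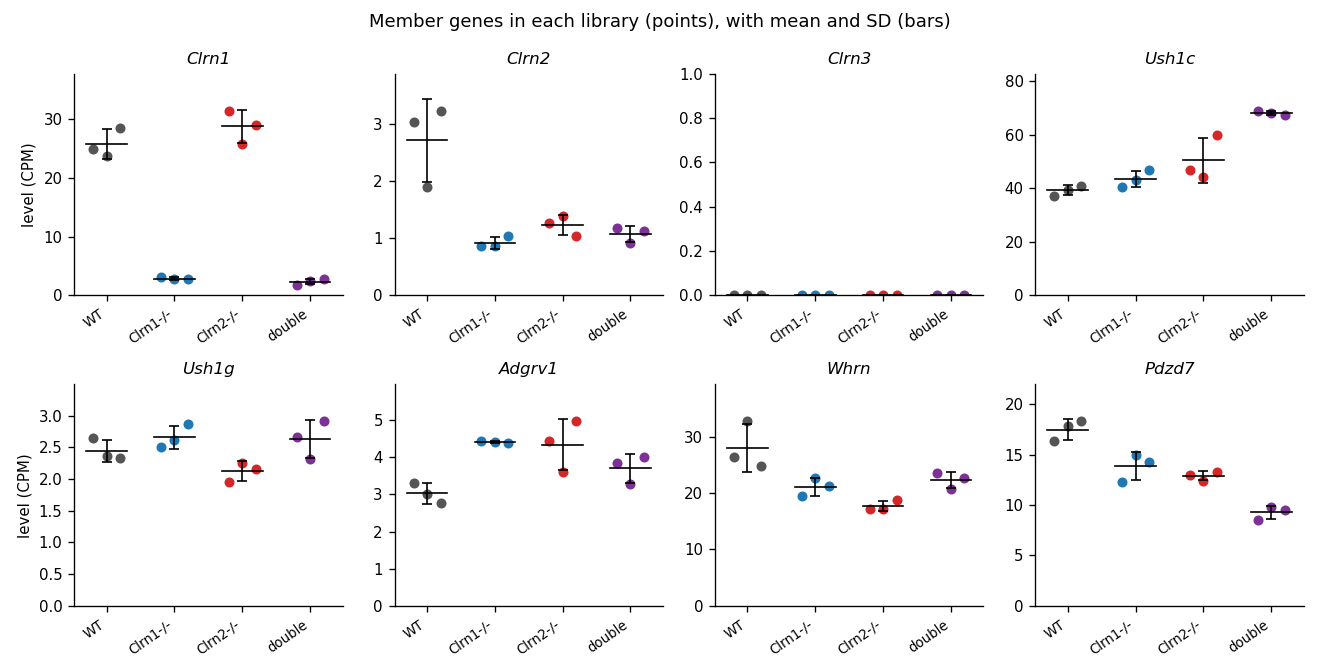
Level in CPM (vertical axes, each from 0) of the 8 members in each of the 12 libraries (points) of wild-type (WT), Clrn1-/-, Clrn2-/- and Clrn1-/-Clrn2-/- (double) mice, with the mean (line) and SD (error bar) of each group of 3. Clrn1 is low in both groups without exon 4, Clrn2 is low in all 3 mutants, Clrn3 is at 0 throughout, Ush1c is highest and Pdzd7 lowest in the double mutants.

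Clrn1 (ENSMUSG00000043850.15, chr3:58844028-58885340, minus strand) encodes clarin-1. Its level was 25, 23.8 and 28.6 CPM in the wild-type libraries, 3.04, 2.69 and 2.75 in Clrn1-/-, 31.5, 25.8 and 29.1 in Clrn2-/-, and 1.77, 2.44 and 2.71 in Clrn1-/-Clrn2-/- mice. Every library labelled as lacking Clrn1 lay far below every other library, as the labels require. The log2 fold change relative to wild-type was -3.19 ± 0.12 (SE, edgeR adjusted p = 4.97e-11) in Clrn1-/- and -3.47 (edgeR adjusted p = 4.44e-11) in Clrn1-/-Clrn2-/- mice, which left 10.9% and 9.04% of the wild-type level. The signal that remained amounted to 96 to 106 counts per library in Clrn1-/- and 54 to 105 in Clrn1-/-Clrn2-/- mice. If all of them lie outside exon 4, the retained exons stood at 1.97 CPM per kilobase in Clrn1-/- and 1.61 in Clrn1-/-Clrn2-/- mice, which is 29.5% and 24% of the 6.69 CPM per kilobase over the whole wild-type gene. The count tables hold no positions within a gene, so this split was not tested.

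Loss of clarin-2 left Clrn1 near its wild-type level. The log2 fold change in Clrn2-/- relative to wild-type was 0.16 with a 95% confidence interval of -0.04 to 0.36 (edgeR adjusted p = 0.306), and the libraries of these groups overlapped. Clrn1 was the only member called in Clrn1-/- relative to Clrn2-/- (log2 fold change -3.35, edgeR adjusted p = 3.01e-11), where 4.73% of all genes tested were called, and the only one in Clrn1-/-Clrn2-/- relative to Clrn2-/- mice (-3.63, edgeR adjusted p = 5.5e-11), where 5.10% were. Between both groups that lack Clrn1 its level differed by -0.27 on the log2 scale, with an interval of -0.60 to 0.05.

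Clrn2 (ENSMUSG00000049530.6, chr5:45453751-45464149, plus strand) encodes clarin-2 and was measured from few counts. The wild-type libraries had 108, 69 and 128 counts, or 3.03, 1.89 and 3.24 CPM. The Clrn2-/- libraries had 47, 45 and 37 counts, or 1.26, 1.38 and 1.04 CPM, and the Clrn1-/-Clrn2-/- libraries 36, 31 and 44, or 1.18, 0.921 and 1.13 CPM. Clrn1-/- libraries, whose Clrn2 gene is intact, were no higher, with 27, 33 and 40 counts, or 0.854, 0.854 and 1.04 CPM. All 9 mutant libraries lay below all wild-type libraries, even the second of these, which was well under the other two. Relative to wild-type, Clrn2 fell by 1.57 on the log2 scale in Clrn1-/- (SE 0.22, edgeR adjusted p = 7.41e-05), by 1.15 in Clrn2-/- (SE 0.21, edgeR adjusted p = 0.00154) and by 1.33 in Clrn1-/-Clrn2-/- mice (SE 0.21, edgeR adjusted p = 0.000127). The mutants kept 33.8%, 45% and 39.7% of the wild-type level.

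Clrn2 levels did not separate the mutants from each other. Clrn1-/- was 0.41 lower than Clrn2-/- on the log2 scale, with an interval of -0.92 to 0.09 and an edgeR adjusted p of 0.25, and Clrn1-/-Clrn2-/- differed from Clrn1-/- by 0.23 with an interval of -0.28 to 0.75. In the test of the interaction, Clrn1-/-Clrn2-/- mice stood 1.38 above the sum of both single differences on the log2 scale (SE 0.32, edgeR adjusted p = 0.00752). Every mutant lay at a similar low level, so this value restates that wild-type alone was high. Clrn2 is itself mutated in Clrn2-/- and Clrn1-/-Clrn2-/- mice. A nonsense change leaves the gene in place, and 1.23 ± 0.172 CPM (SD, n = 3) of Clrn2 were still counted in Clrn2-/- mice.

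Clrn3 (ENSMUSG00000050866.7, chr7:135511466-135528654, minus strand), the third clarin gene, had no count in any of the 12 libraries and on either strand. A count of 0 allows a level of up to 0.0759 to 0.0983 CPM per library, taken at 3 counts and for counting error only. No comparison between genotypes was possible for it, and a rise of Clrn3 to a level above this limit was not seen in any clarin mutant.

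Ush1c (ENSMUSG00000030838.18, chr7:46195350-46238503, minus strand) was the most abundant member per length in wild-type, at 10.2 ± 0.476 FPKM (SD, n = 3). Its level was 37.2, 39.4 and 40.9 CPM in wild-type, 40.4, 43.1 and 46.6 in Clrn1-/-, 46.9, 44.2 and 59.9 in Clrn2-/-, and 69, 68 and 67.3 in Clrn1-/-Clrn2-/- mice. The 3 double mutant libraries lay within 2 CPM of each other and above all others, whereas wild-type and Clrn1-/- overlapped. Ush1c rose by 0.80 on the log2 scale in Clrn1-/-Clrn2-/- relative to wild-type (SE 0.09, edgeR adjusted p = 2.7e-06), that is 1.74-fold. It also rose relative to Clrn1-/- (0.65, SE 0.09, edgeR adjusted p = 3.17e-05), where 7.23% of all genes tested were called and Ush1c was the only member. In the paper's quantitative real-time PCR (qRT-PCR), Ush1c did not differ significantly between the double mutants and wild-type.

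The single mutants lay between. In Clrn2-/- the log2 fold change of Ush1c relative to wild-type was 0.36 (edgeR adjusted p = 0.0111), below the 1.5-fold minimum, and in Clrn1-/- it was 0.15 with an interval of -0.04 to 0.33 (edgeR adjusted p = 0.241). In order of level the groups ran from wild-type through Clrn1-/- and Clrn2-/- to Clrn1-/-Clrn2-/- mice. The neighbours wild-type and Clrn1-/-, and Clrn1-/- and Clrn2-/- (log2 difference -0.21, edgeR adjusted p = 0.0986), did not differ beyond their spread, and Clrn2-/- and Clrn1-/-Clrn2-/- differed by 0.44 (edgeR adjusted p = 0.00138), under the 1.5-fold minimum. The log2 value of the interaction, 0.29, missed the threshold (edgeR adjusted p = 0.119). Ush1c and Otog, the gene of the tectorial membrane protein otogelin, start 2484 bases apart on opposite strands. Otog stood at 118 ± 10.4 CPM in wild-type, at 170 ± 2.81 in Clrn1-/-, at 199 ± 27.8 in Clrn2-/- and at 262 ± 6.99 in the double mutants (SD, n = 3), in the same order of groups as Ush1c.

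Ush1g (ENSMUSG00000045288.10, chr11:115315192-115322041, minus strand), which lies wholly inside the opposite-strand gene Otop2 without sharing exonic bases, passed no test. Its level was 2.64, 2.36 and 2.33 CPM in wild-type, 2.5, 2.61 and 2.86 in Clrn1-/-, 1.96, 2.26 and 2.16 in Clrn2-/-, and 2.66, 2.32 and 2.91 in Clrn1-/-Clrn2-/- mice. The Clrn2-/- libraries were the lowest, below all wild-type ones, and the other groups overlapped. The log2 fold changes relative to wild-type were 0.13 (interval -0.16 to 0.41) in Clrn1-/-, -0.20 (-0.49 to 0.10) in Clrn2-/- and, in the double mutants, 0.11 (-0.18 to 0.40). The libraries held 73 to 113 counts of it, and all 3 intervals lay inside the 1.5-fold minimum in both directions.

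Adgrv1 (ENSMUSG00000069170.14, chr13:81095068-81633154, minus strand) had the lowest level per length of the members with counts, 0.122 FPKM over 24878 exonic bases. Its level was 3.32, 3.01 and 2.76 CPM in wild-type, 4.43, 4.42 and 4.39 in Clrn1-/-, 4.44, 3.61 and 4.97 in Clrn2-/-, and 3.84, 3.27 and 4 in Clrn1-/-Clrn2-/- mice. Both single mutants lay above all wild-type libraries, and the double mutants overlapped with wild-type by 1 library. The log2 fold change was 0.54 in Clrn1-/- (SE 0.13, edgeR adjusted p = 0.00686) and 0.52 in Clrn2-/- (SE 0.13, edgeR adjusted p = 0.0162), each under the 1.5-fold minimum, and 0.29 in Clrn1-/-Clrn2-/- mice (edgeR adjusted p = 0.109). Scaled by library size alone, the Clrn1-/- value was 0.59 and past that minimum (edgeR adjusted p = 0.0045). The single differences thus did not add up, and the interaction was called at -0.78 on the log2 scale (SE 0.19, edgeR adjusted p = 0.00993). Clrn1-/- and Clrn2-/- differed by 0.02, with an interval of -0.26 to 0.30.

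Whrn (ENSMUSG00000039137.18, chr4:63414910-63495991, minus strand) was lower than wild-type in every mutant. The libraries held 26.4, 32.7 and 24.7 CPM in wild-type, 19.5, 22.6 and 21.2 in Clrn1-/-, 17.2, 17.1 and 18.8 in Clrn2-/-, and 23.6, 20.7 and 22.6 in Clrn1-/-Clrn2-/- mice. No mutant library reached the lowest wild-type one, and the Clrn2-/- libraries were below all others. Whrn fell by 0.66 on the log2 scale in Clrn2-/- relative to wild-type (SE 0.09, edgeR adjusted p = 0.000228). Without the second wild-type library, the highest of the 12, the difference was -0.52 (edgeR adjusted p = 0.000587) and under the 1.5-fold minimum.

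For Whrn, the log2 fold change was -0.40 in Clrn1-/- (edgeR adjusted p = 0.0045) and -0.32 in Clrn1-/-Clrn2-/- mice (edgeR adjusted p = 0.0115), under the same minimum. The double mutants were 0.33 above Clrn2-/- (edgeR adjusted p = 0.0165) and 0.08 above Clrn1-/-, the latter with an interval of -0.12 to 0.28. The interaction of the genotypes was called for Whrn at 0.73 on the log2 scale (SE 0.13, edgeR adjusted p = 0.00138). With Clrn2 and Adgrv1 it made 3 of 7 members called in this test, where 5.50% of all genes tested were called. Of these, Clrn2 is itself mutated in Clrn2-/- and Clrn1-/-Clrn2-/- mice.

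Pdzd7 (ENSMUSG00000074818.13, chr19:45026906-45045717, minus strand) showed the largest decrease outside the clarins. Its level was 16.3, 17.8 and 18.3 CPM in wild-type, 12.3, 15 and 14.3 in Clrn1-/-, 13, 12.4 and 13.3 in Clrn2-/-, and 8.56, 9.81 and 9.46 in Clrn1-/-Clrn2-/- mice. The groups fell into 3 separate ranges, with wild-type highest, the single mutants overlapping in between and the double mutants lowest. Pdzd7 fell by 0.91 on the log2 scale in Clrn1-/-Clrn2-/- relative to wild-type (SE 0.08, edgeR adjusted p = 5.64e-07), which left 53.3% of the wild-type level. In the paper's qRT-PCR, Pdzd7 did not differ significantly between these groups. The log2 differences in the single mutants were -0.33 in Clrn1-/- (edgeR adjusted p = 0.00753) and -0.43 in Clrn2-/- (edgeR adjusted p = 0.00222), both under the 1.5-fold minimum. Relative to Clrn1-/- and to Clrn2-/-, the double mutants differed by -0.58 (edgeR adjusted p = 8.58e-05), only just under the minimum, and by -0.48 (edgeR adjusted p = 0.000769). The interaction was -0.15 on the log2 scale, with an interval of -0.40 to 0.10, so a departure from the sum of both single differences was not detected.

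**Figure D3:**
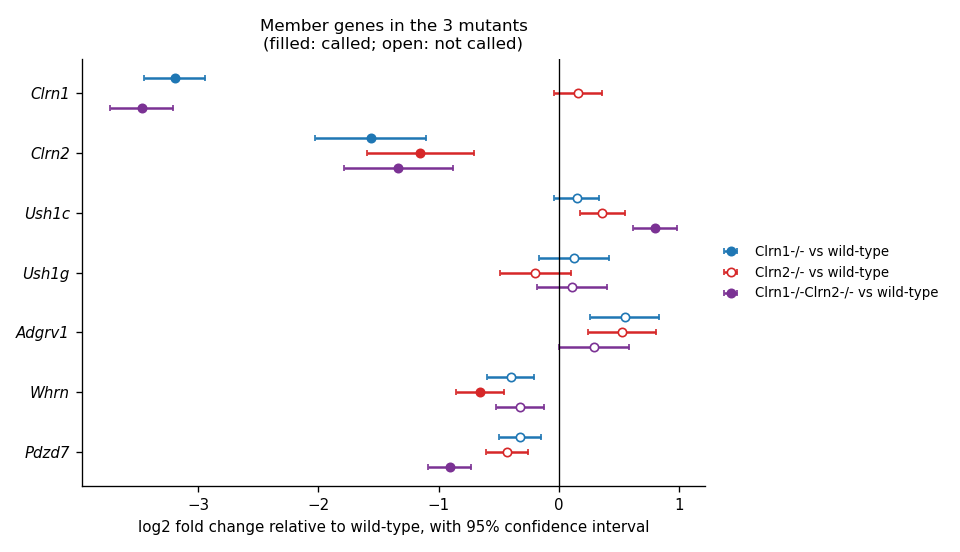
Log2 fold change relative to wild-type (horizontal axis) with its 95% confidence interval (bars) for the 7 members tested, in Clrn1-/-, Clrn2-/- and Clrn1-/-Clrn2-/- mice, from edgeR. Filled points are called: Clrn1 near -3.2 and -3.5 where it is deleted, Clrn2 in all 3 mutants, Whrn in Clrn2-/-, and Ush1c (0.80) and Pdzd7 (-0.91) in the double mutants.

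Pdzd7 was the only member with many counts on the opposite strand. Over all libraries, 56.1% of its stranded counts were antisense, against 0.261% to 0.993% for the 6 other members with counts. The 3′ end of Pdzd7 overlaps 206 exonic bases of Lzts2, which runs on the plus strand and stood at 146 ± 8.22 CPM in wild-type and 163 ± 2.35 in Clrn1-/-Clrn2-/- mice (SD, n = 3). The antisense level on Pdzd7 was 15.1, 17.1 and 16.4 CPM in wild-type, 16.3, 19.8 and 17.7 in Clrn1-/-, 17.3, 17.3 and 17.7 in Clrn2-/-, and 17.3, 17.3 and 17.7 in Clrn1-/-Clrn2-/- mice. All 3 mutants thus overlapped or exceeded wild-type on this strand, while on the strand of Pdzd7 they lay below it. The ratio of antisense to sense counts was between 0.9 and 0.965 in wild-type, 1.24 and 1.33 in Clrn1-/-, 1.33 and 1.4 in Clrn2-/-, and 1.76 and 2.02 in the double mutants. In the unstranded counts, which are not the sum of both strand columns, the log2 fold change of Pdzd7 in the double mutants was -0.55 (edgeR adjusted p = 4.12e-05). It no longer reached 1.5-fold.

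**Figure D4:**
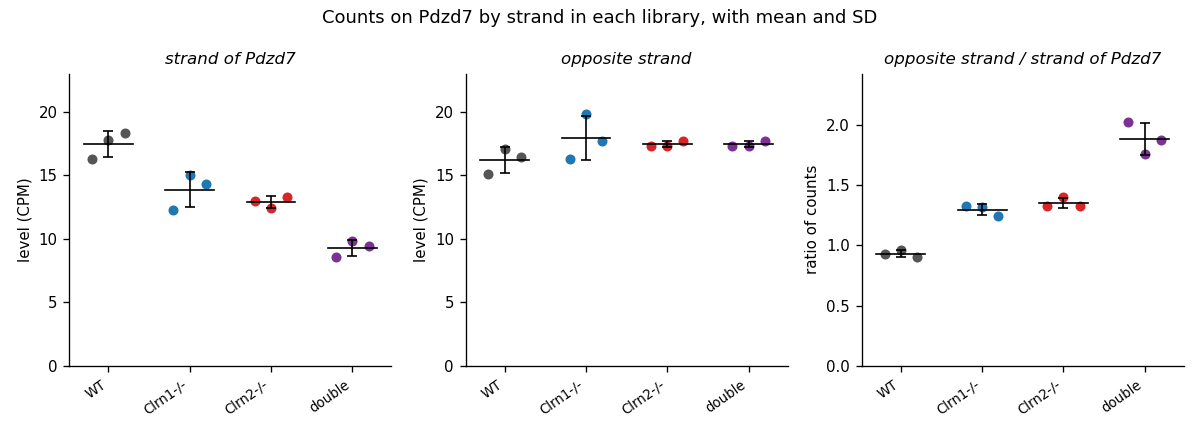
Counts on Pdzd7 by strand in each of the 12 libraries (points), with the mean (line) and SD (error bar) per genotype: CPM on the strand of Pdzd7 (left), CPM on the opposite strand (middle), and the ratio of opposite to own strand counts (right). The left panel falls from wild-type to the double mutants, the middle panel stays between 15.1 and 19.8 CPM, and the ratio goes from at most 0.965 to at least 1.76.

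Per length, the wild-type levels of the members ranked Ush1c (10.2 FPKM), Clrn1 (6.69), Pdzd7 (4.3), Whrn (3.81), Clrn2 (2.88), Ush1g (0.739), Adgrv1 (0.122) and Clrn3 (0). The SDs of Pdzd7 (0.256 FPKM), Whrn (0.58) and Clrn2 (0.77) are large enough that neighbours among these 3 were not clearly separated. In the double mutants, Ush1c was at 17.7 ± 0.229 FPKM, Whrn at 3.04 ± 0.203 and Pdzd7 at 2.29 ± 0.159 (SD, n = 3). The ankle link genes did not share a direction in the double mutants, where Pdzd7 was called lower and the log2 fold changes of Whrn (-0.32) and Adgrv1 (0.29), on either side of 0, were not called.

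Over the 12 libraries, the log2 CPM of Ush1c and Pdzd7 had a Pearson r of -0.853, which within genotypes, over deviations from the group means, was 0.462. Clrn2 and Adgrv1 had an r of -0.742 over all libraries and -0.143 within genotypes. These values describe libraries that share genotype, composition and processing. By the same measure, the genes most like Ush1c were Rbp7 (r = 0.982) and Slco2a1 (0.982), those most like Pdzd7 were Slc4a3 (0.987) and Zfr2 (0.984), and those most like Clrn2 were Ghr (0.969) and Tmem132c (0.962). Clrn1 was most like 1700030C10Rik (0.979) and Zfp738 (0.974), Whrn most like Slc29a4 (0.924) and Myh11 (0.913), and Adgrv1 most like 9430097D07Rik (0.927) and 2310057M21Rik (0.901). The closest to Ush1g were Gm37899 (0.886) and Tmem173 (0.876).

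The other Usher genes and partners of these proteins were measured as a list of 14, all of which passed the filter and 13 of which are described. In Clrn1-/- relative to wild-type 1 was called higher and 1 lower, in Clrn2-/- 1 higher and 0 lower, and in Clrn1-/-Clrn2-/- mice 3 higher and 0 lower, beside 7.22%, 2.66% and 9.90% of all genes tested. The median log2 fold change was 0.07, -0.01 and 0.15.

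**Figure D5:**
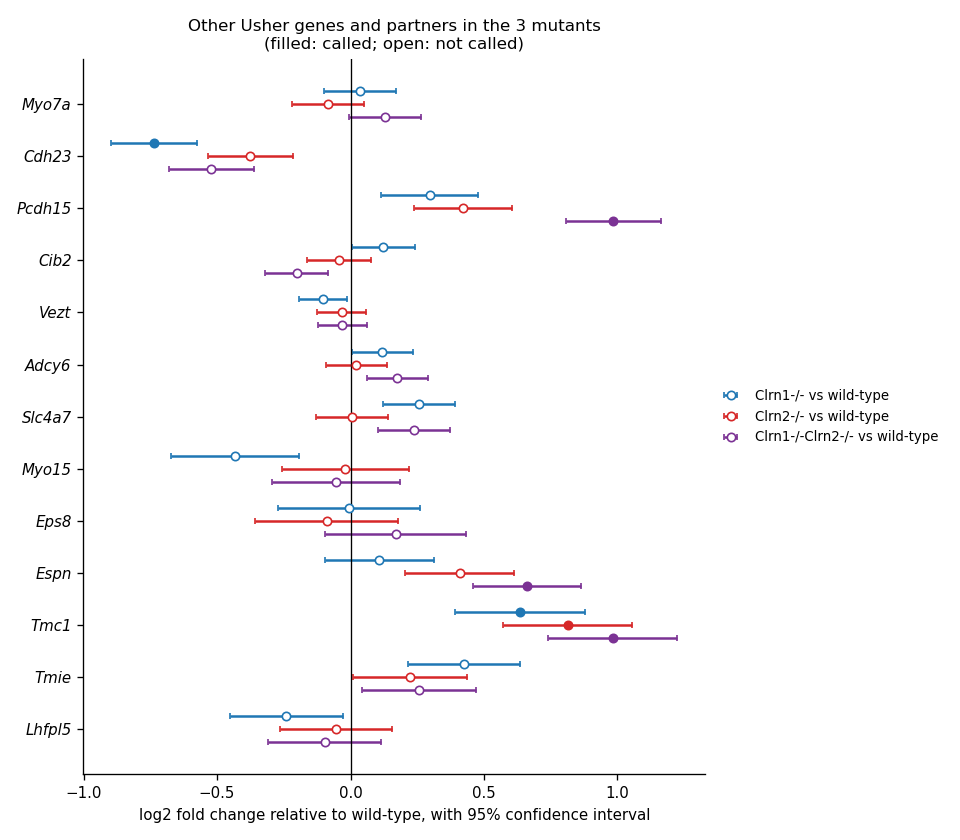
Log2 fold change relative to wild-type (horizontal axis) with its 95% confidence interval for 13 other Usher genes and partners of the members in the 3 mutants, from edgeR, with filled points for called genes. Tmc1 is called higher in all 3 mutants, Pcdh15 and Espn in the double mutants, and Cdh23 is called lower in Clrn1-/-.

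Of the tip link cadherins, Cdh23 was called lower in Clrn1-/- and Pcdh15 higher in the double mutants. Cdh23, the upper part of the link and a binding partner of harmonin, stood at 34 ± 1.9 CPM in wild-type, at 20.4 ± 2.29 in Clrn1-/-, at 26.2 ± 1.62 in Clrn2-/- and at 23.7 ± 0.818 in the double mutants (SD, n = 3). It fell in Clrn1-/- (log2 -0.74, edgeR adjusted p = 4.16e-06), and its log2 differences in Clrn2-/- (-0.38) and Clrn1-/-Clrn2-/- (-0.52) mice were under 1.5-fold. Pcdh15, the lower part, rose by 0.98 in Clrn1-/-Clrn2-/- mice (edgeR adjusted p = 2.33e-07), from 11.6 ± 0.558 to 23 ± 1.52 CPM (SD, n = 3). Its rises in Clrn1-/- (0.30, edgeR adjusted p = 0.0179) and Clrn2-/- (0.42, edgeR adjusted p = 0.00358) were under 1.5-fold. Tmc1, a subunit of the MET channel, rose by 0.63 in Clrn1-/- (edgeR adjusted p = 0.000739), by 0.81 in Clrn2-/- (edgeR adjusted p = 0.000197) and by 0.98 in the double mutants (edgeR adjusted p = 5.3e-06). The call in Clrn1-/- was lost without the third Clrn1-/- library (0.55) or the first wild-type library (0.56). Espn, which encodes the actin-bundling protein espin, rose by 0.66 in Clrn1-/-Clrn2-/- mice (edgeR adjusted p = 4.68e-05). Without the first wild-type library its value of 0.58 was just short of 1.5-fold. In Clrn2-/- Espn rose by 0.41 (edgeR adjusted p = 0.00939), under 1.5-fold. In the paper's qRT-PCR of double mutants and wild-type, Pcdh15 and Tmc1 were significantly higher, while Espn did not differ significantly.

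The myosin Myo7a, which binds SANS and harmonin, had log2 fold changes of 0.04, -0.08 and 0.13 in the 3 mutants, none past the threshold. The genes Vezt, Adcy6, Slc4a7, Cib2, Myo15, Eps8, Tmie and Lhfpl5 were not called in any mutant relative to wild-type.

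Epithelial microvilli use a complex built like the Usher one, with relatives of these proteins. Of the 5 genes listed for it here, Cdhr2, Cdhr5, Myo7b and Anks4b stood below 0.21 CPM on average in every genotype. They were not tested as they failed the filter. Calml4 had 13.8 ± 0.8 CPM in wild-type (SD, n = 3), and none of the 3 mutants was called, with log2 fold changes of -0.25 (Clrn1-/-), 0.05 (Clrn2-/-) and 0.15 (double mutants).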

How the data were processed

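RNA of the organ of Corti was sequenced in 12 libraries, 3 for each of 4 genotypes, which were grouped by the genotype and replicate labels. Poly-A RNA was made into directional libraries. The authors aligned the reads to GRCm38.p6 and counted them per gene with STAR on the Gencode M24 annotation. They deposited raw counts per gene in 3 columns (unstranded, and each strand) without normalization, filtering or pooling. The column of the kit's orientation was used, with 95.23% to 95.55% of stranded counts. Counts on genes ranged from 30008679 to 41049302 per library, and totals of reads outside genes (13.54% to 15.76%) were left out. Gene positions, exonic lengths and sequences came from Gencode M21 on the same build, matched by symbol for 53244 genes and all 8 members. FPKM is CPM divided by exonic kilobases.

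Counts were analysed with edgeR 4.0.16 in R 4.3.3. filterByExpr at a minimum count of 10 kept 19052 genes, whose counts were scaled by TMM (factors 0.963 to 1.02), fitted over all 12 libraries with genotype alone, and compared by the quasi-likelihood test with Benjamini-Hochberg adjustment over all genes tested. A call needed an adjusted p no higher than 0.05 together with a 1.5-fold change. SEs of log2 fold changes came from the test statistic, with 95% confidence intervals. A count of 0 was bounded by 3 counts per library, and such limits cover counting error only. The fit was tested on simulated data.

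Named genes were all members, the listed partner and microvillus genes, markers beside a result, and for each member of at least 1 CPM the 2 genes of highest Pearson r in log2 CPM (prior count 2). Lzts2 and Otog were added as neighbours in the genome. The members and lists were chosen with earlier results of these data known.

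Alternatives were limma-voom (limma 3.58.1), DESeq2 1.42.0, library size alone, no filter, a minimum FPKM of 0.1 in any library, and a fit of the compared genotypes alone. Further ones were a replicate block, adjusted p alone without a fold minimum, unstranded counts, and leaving out single libraries. Same-numbered libraries of wild-type and Clrn1-/- mice had correlated deviations from their group means (r = 0.269, 0.126 and 0.105). Over all 18 such correlations between genotypes, r ran from -0.277 to 0.301, and differently numbered libraries were not compared. This check therefore cannot decide whether the numbers pair the libraries. In no other pair of genotypes did all 3 correlations exceed 0.1, and the labels give the number no meaning. Protein sequences and imaging were not used here, and 1 listed partner gene is not reported here.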

Additional observations from a re-analysis of the deposited data

Results flagged for a closer look

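For 3 members the difference that goes with loss of Clrn1 was not the same with and without Clrn2, by edgeR's test of the interaction over all genes. Whrn stood 0.73 above the sum of both single differences on the log2 scale (edgeR adjusted p = 0.00138). Each single mutant lay below wild-type, and the double mutants, in 3 of 3 libraries, above every Clrn2-/- library. Clrn2 stood 1.38 above that sum (edgeR adjusted p = 0.00752), with all 3 mutants at 33.8% to 45% of the wild-type level. This value rests on 27 to 128 counts per library, on wild-type alone being high, and on a gene mutated in Clrn2-/- and Clrn1-/-Clrn2-/- mice. Adgrv1 stood below the sum, at -0.78 on the log2 scale (edgeR adjusted p = 0.00993), with log2 fold changes of 0.54 and 0.52 in the single mutants and 0.29 in the double mutants. The wild-type libraries enter all 3 values, and they came from separate breedings, so breeding and genotype cannot be told apart here.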

How the results depend on the processing

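Of the 14 called differences of members, 12 kept their call under every alternative run. Pdzd7 in Clrn1-/-Clrn2-/- relative to wild-type dropped below 1.5-fold with unstranded counts (-0.55), and Whrn in Clrn2-/- without the second wild-type library (-0.52). Without a fold minimum, 5 members were called in Clrn1-/- and 5 in Clrn2-/- relative to wild-type, 2 in Clrn1-/-Clrn2-/- relative to Clrn1-/- and 4 relative to Clrn2-/- mice, where 26.9%, 14.2%, 30.4% and 27.6% of all genes tested then passed. By that rule 6, 4 and 7 of the 14 partner genes were called in Clrn1-/-, Clrn2-/- and double mutants relative to wild-type, with 26.9%, 14.2% and 37.0% of all genes. With library size alone 3 members in place of 2 were called in Clrn1-/- relative to wild-type, Adgrv1 (0.59) being the third. Over all genes 1386 were then called, against 1375 in the main fit. Adgrv1 also passed 1.5-fold without the first wild-type library (0.62 in Clrn1-/-, 0.60 in Clrn2-/-) and without the second Clrn2-/- library (0.64 in Clrn2-/-). With DESeq2, and with no filter on low counts, 2 members in place of 1 were called in Clrn1-/-Clrn2-/- relative to Clrn1-/- mice, Pdzd7 being the second. Over all genes 1215 and 1568 were then called, against 1378 in the main fit. Leaving out 1 library at a time, the members called in Clrn1-/-Clrn2-/- relative to Clrn1-/- mice ranged from 1 to 2, with 1210 to 1328 of all genes. Relative to wild-type they ranged from 2 to 3 in Clrn1-/- (1192 to 1389 of all genes) and from 1 to 3 in Clrn2-/- (369 to 571 of all genes). The partner genes called in Clrn1-/- ranged from 1 to 2. They were 1 without the first wild-type library or the third Clrn1-/- library, and without either Tmc1 was the one lost. Directions turned only in 4 values that were not called, namely the interaction of Pdzd7 with unstranded counts (0.055), Ush1g in Clrn1-/-Clrn2-/- relative to Clrn1-/- without the third Clrn1-/- library (0.03) or the second double mutant library (0.059; lowest -0.112 without the third), and Adgrv1 in Clrn1-/- relative to Clrn2-/- without the second Clrn2-/- library (-0.089; highest 0.127 without the third). The cause was not tested.

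With the replicate block, Clrn1 and Clrn2 in Clrn1-/- relative to wild-type were at -3.19 and -1.55 on the log2 scale, and the block changed no call of a member in any comparison. Counting limits Clrn2 and Ush1g (27 to 128 counts per library) and Clrn3.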

Other observations

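Markers of other cells of the cochlea moved as well, with values in CPM summed over each list. The counts of calls stand beside 7.22%, 2.66% and 9.90% of all genes tested in Clrn1-/-, Clrn2-/- and double mutants relative to wild-type. Red blood cell genes summed to 700 to 1140 in wild-type, 278 to 379 in Clrn1-/-, 426 to 642 in Clrn2-/- and 535 to 714 in Clrn1-/-Clrn2-/- mice, and 5, 5 and 2 of 5 were called lower.
Macrophage genes summed to 106 to 139 in wild-type, 167 to 178 in Clrn1-/-, 122 to 157 in Clrn2-/- and 163 to 193 in the double mutants, with 1, 1 and 2 of 6 called higher. Fibroblast genes summed to 7030 to 9110 in wild-type, 4840 to 5290 in Clrn1-/-, 4860 to 5240 in Clrn2-/- and 6690 to 8060 in the double mutants. Of these 6 genes 2, 2 and 1 were called lower, while 4 had positive log2 fold changes in the double mutants (median 0.095). Bone genes summed to 71.2 to 125 in wild-type, 147 to 178 in Clrn1-/-, 77.8 to 109 in Clrn2-/- and 135 to 161 in the double mutants. Of these 4 genes 1, 0 and 1 were called higher. Sums of stria vascularis genes overlapped wild-type in every mutant, with 1 of 7 called higher and 2 lower in the double mutants. The part of these cells in the values of the 8 genes was not tested.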
